A study of Mus musculus with 13 samples.

Results

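Messenger RNA of 9 chemokine receptor genes (Ccr2, Ccr4, Ccr6, Ccr7, Ccr8, Ccr9, Cxcr3, Cxcr4 and Cxcr5) was followed in CD4SP thymocytes, the CD4+CD8- cells that leave the thymus as CD4+ T cells. The 9 genes form a list of names, with no threshold on their values, and all 9 were found among the 35906 genes to which the transcripts of the data could be assigned. Cells were sorted as M2, the CD69-MHCI+ and most mature CD4SP stage, from mice that carry the Lm54 T cell receptor transgene on a Rag1-/- background, so that all T cells in a mouse bear 1 receptor, specific for a peptide of listeriolysin O (LLO) on the MHC class II molecule I-Ab. In CtslΔTEC mice the gene for the protease cathepsin L is deleted in thymic epithelial cells by Foxn1-cre, and the controls, written WT here as in the labels, carry floxed Ctsl. The sorted thymocytes are not the cells that undergo the deletion, so their own Ctsl level does not check the labels. All mice were adults on the C57BL/6J background, and each of the 13 libraries came from 1 mouse.

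Cells of 5 CtslΔTEC mice (mice 1 to 5) and 4 WT mice (mice 1 to 4) were taken without stimulation. Cells of 2 further CtslΔTEC mice (mice 6 and 7) and 2 further WT mice (mice 5 and 6) were stimulated for 4 h with plate-bound LLO:I-Ab monomer at 1 µg/ml and soluble anti-CD28 at 250 ng/ml. The question was how selection without cathepsin L in the thymic epithelium shows in the receptors that steer these cells, before and after the T cell receptor is engaged.

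Chemokine receptors are G protein-coupled receptors of leukocytes that turn a gradient of chemokine into directed movement, through Gαi proteins, phosphoinositide 3-kinase and the exchange factor DOCK2. In the thymus, CXCR4 and its ligand CXCL12 act in the cortex, where CD4+CD8+ (DP) thymocytes reside, and CCR9, the receptor for CCL25, is carried by DP cells and by many of their descendants. CCR7, CCR4 and CCR8 are acquired after positive selection. CCR7 draws selected cells into the medulla towards CCL19 and CCL21, CCR4 binds CCL17 and CCL22, and CCR8 binds CCL1 and, in mice, CCL8. CXCR3, CXCR5, CCR2 and CCR6 are best known from peripheral T cells, where they serve Th1 effector, follicular helper, inflammatory and Th17 or mucosal cells, respectively.

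The sequences just upstream of 3 of the receptors are shown because Ccr8 and Ccr4 were the members with the strongest loss in CtslΔTEC cells and both rose on stimulation, whereas Ccr9 was the member that was higher in CtslΔTEC cells. They were read from RefSeq (build GRCm38.p6), run 5′ to 3′ on the strand of the gene, and end at the last base before the most upstream annotated exon of that gene in the window. Capitals mark GGAAA, the core recognised by NFAT factors, TGANTCA, the AP-1 element, and GATAA, the core of a GATA site, on either strand.
Ccr8 (chr9:120091883-120092113, plus strand): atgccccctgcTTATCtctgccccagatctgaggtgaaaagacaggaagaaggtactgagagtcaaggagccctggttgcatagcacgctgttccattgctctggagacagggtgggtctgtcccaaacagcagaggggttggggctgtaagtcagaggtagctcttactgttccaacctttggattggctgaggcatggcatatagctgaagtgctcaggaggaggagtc
Ccr4 (chr9:114496563-114496794, minus strand): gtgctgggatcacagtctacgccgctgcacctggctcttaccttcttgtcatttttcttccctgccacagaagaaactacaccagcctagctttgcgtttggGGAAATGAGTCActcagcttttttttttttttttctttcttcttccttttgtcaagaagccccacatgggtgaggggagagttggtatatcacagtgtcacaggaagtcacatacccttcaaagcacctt
Ccr9 (chr9:123766961-123767168, plus strand): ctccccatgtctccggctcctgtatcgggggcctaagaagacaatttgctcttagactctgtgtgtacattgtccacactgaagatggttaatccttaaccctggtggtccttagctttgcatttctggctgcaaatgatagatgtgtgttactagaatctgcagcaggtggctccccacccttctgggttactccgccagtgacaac
The Ccr4 window held a GGAAA followed at once by TGAGTCA, with no overlap between them. Of 32851 promoter windows of 232 bases in the same table, 52.9% held GGAAA, 6.39% held TGANTCA, 3.41% held both and 13 held them directly one after the other. This last pattern copies the arrangement in the Ccr4 window, so its count is not a test of Ccr4. The 231 bases upstream of Ccr8 held neither, and contained 1 GATAA on the opposite strand, as 21.5% of windows of that length did. The 208 bases upstream of Ccr9 held none of the 3 motifs, which occurred in 49.7%, 5.78% and 19.8% of windows of that length. These matches describe letters only, and no binding was measured. RefSeq windows were at hand for 7 of the 9 genes.

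The unstimulated libraries held between 25692380 and 39127833 estimated counts and the stimulated libraries between 8085463 and 27184520. Levels are given as CPM, estimated counts scaled to the library total with TMM factors, for comparing a gene between libraries, or as TPM, the share of transcripts, which accounts for transcript length and allows genes to be compared. Fold changes and adjusted p-values are from edgeR's quasi-likelihood test over all genes that passed its count filter, and a gene was called at an adjusted p under 0.1. The p-values measure the spread between mice. The files of unstimulated cells carry 2 dates, both with mice of each genotype, and those of stimulated cells another date. The labels name no culture for the unstimulated cells, while the stimulated cells spent 4 h in vitro. Stimulation, time in vitro and date therefore cannot be told apart. The Y-linked transcript Ddx3y was at 125 to 206 CPM in the 5 unstimulated CtslΔTEC mice and at 161 CPM in WT mouse 3, and at 1 or 2 counts in the other 3 unstimulated WT mice. Ddx3y marks male cells, so sex ran nearly with genotype in the unstimulated groups, and with a Y-linked covariate 430 genes were called there in place of 1943. Among stimulated mice, 1 of each genotype had Ddx3y at 189.5 CPM (WT) or 242 CPM (CtslΔTEC) and 1 had at most 2 counts. The T cell marker list (8 genes, among them Cd3e and Cd4) summed to 4633 to 5737 TPM in every library. The transcription factors Pax5 of B cells and Foxn1 of thymic epithelium and the NK cell receptor gene Ncr1 had at most 2 counts in any library, while other genes of these lists were detected, as given with the marker lists.

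In unstimulated cells the 9 receptors together reached 524 to 579 TPM in WT mice and 479 to 513 TPM in CtslΔTEC mice. Most of this was Ccr7, with 82.1 to 88.5% of the summed TPM in WT and 73.8 to 79.7% in CtslΔTEC cells. Ccr9 came next in CtslΔTEC cells, with 14.0 to 18.1%, against 5.79 to 8.27% in WT cells. Ccr8 made up 0.736 to 2.37% of the receptor transcripts of WT cells and at most 0.0494% of those of CtslΔTEC cells. After stimulation the order was different. WT cells then divided their receptor transcripts between Ccr4 (28.1 to 32.3%), Ccr8 (27.0 to 28.6%), Ccr7 (16.2 to 29.1%) and Ccr9 (10.5 to 16.5%). Stimulated CtslΔTEC cells had Ccr9 as their most abundant receptor transcript, at 36.4 to 46.1%, while Ccr4 held 19.4 to 23.5%, Ccr7 13.2 to 23.6% and Ccr8 6.59 to 7.78%. Ccr4 was next in mouse 6 and Ccr7 in mouse 7. The summed level of the 9 was 405 to 431 TPM in stimulated WT and 242 to 279 TPM in stimulated CtslΔTEC cells.

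**Figure D1:**
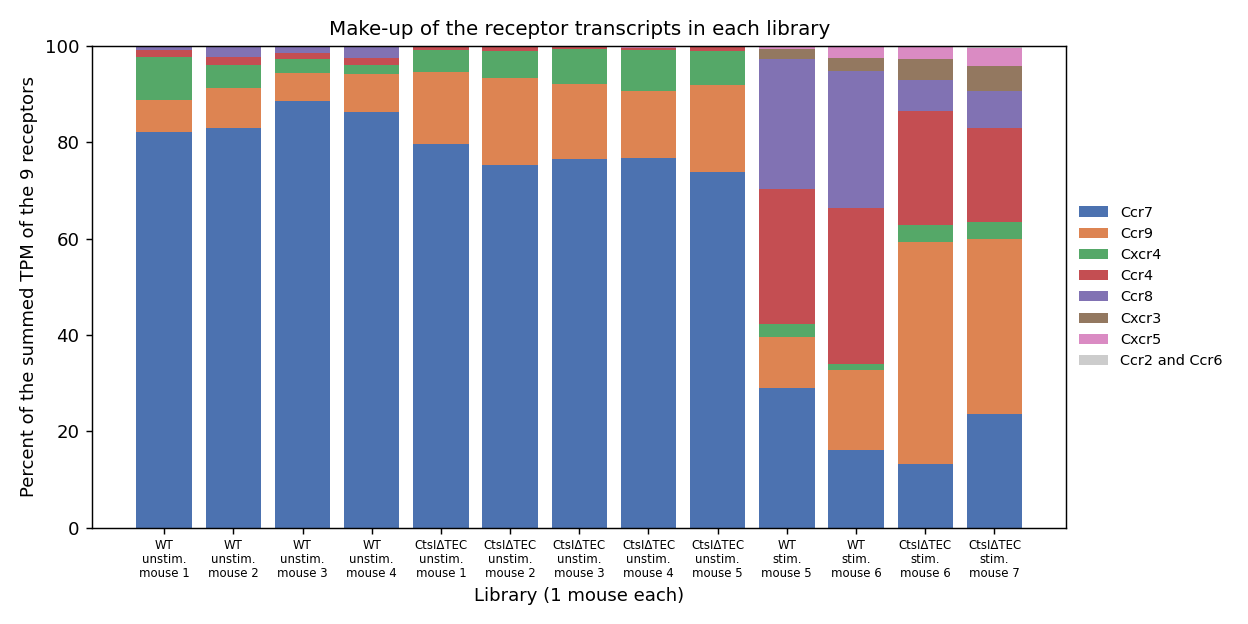
Percent of the summed TPM of the 9 receptors held by each receptor, with 1 bar per mouse. Ccr7 fills 73.8 to 88.5% of every unstimulated bar, Ccr4 and Ccr8 together are prominent in stimulated WT mice, and Ccr9 is the largest segment in both stimulated CtslΔTEC mice.

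Of the 7 receptors that could be tested in unstimulated cells, Ccr9 was higher and Ccr8, Ccr4 and Ccr7 were lower in CtslΔTEC than in WT cells. Over all 13152 genes tested, 6.42% were called higher and 8.36% lower. Cxcr4, Cxcr5 and Ccr2 did not pass the test, and Cxcr3 and Ccr6 had too few counts to be tested. The median log2 fold change of the 7 was 0.15, against 0.01 over all genes. In stimulated cells 8 receptors were tested, and Ccr9 was again the member called higher and Ccr8, Ccr4 and Ccr7 those called lower, where 2.77% of 14241 genes were called higher and 10.6% lower. These calls in stimulated cells rest on 2 mice per genotype. Without CtslΔTEC mouse 6, or without WT mouse 5, Ccr7 and Ccr9 were no longer called and 2 members remained, Ccr8 and Ccr4.

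**Figure D2:**
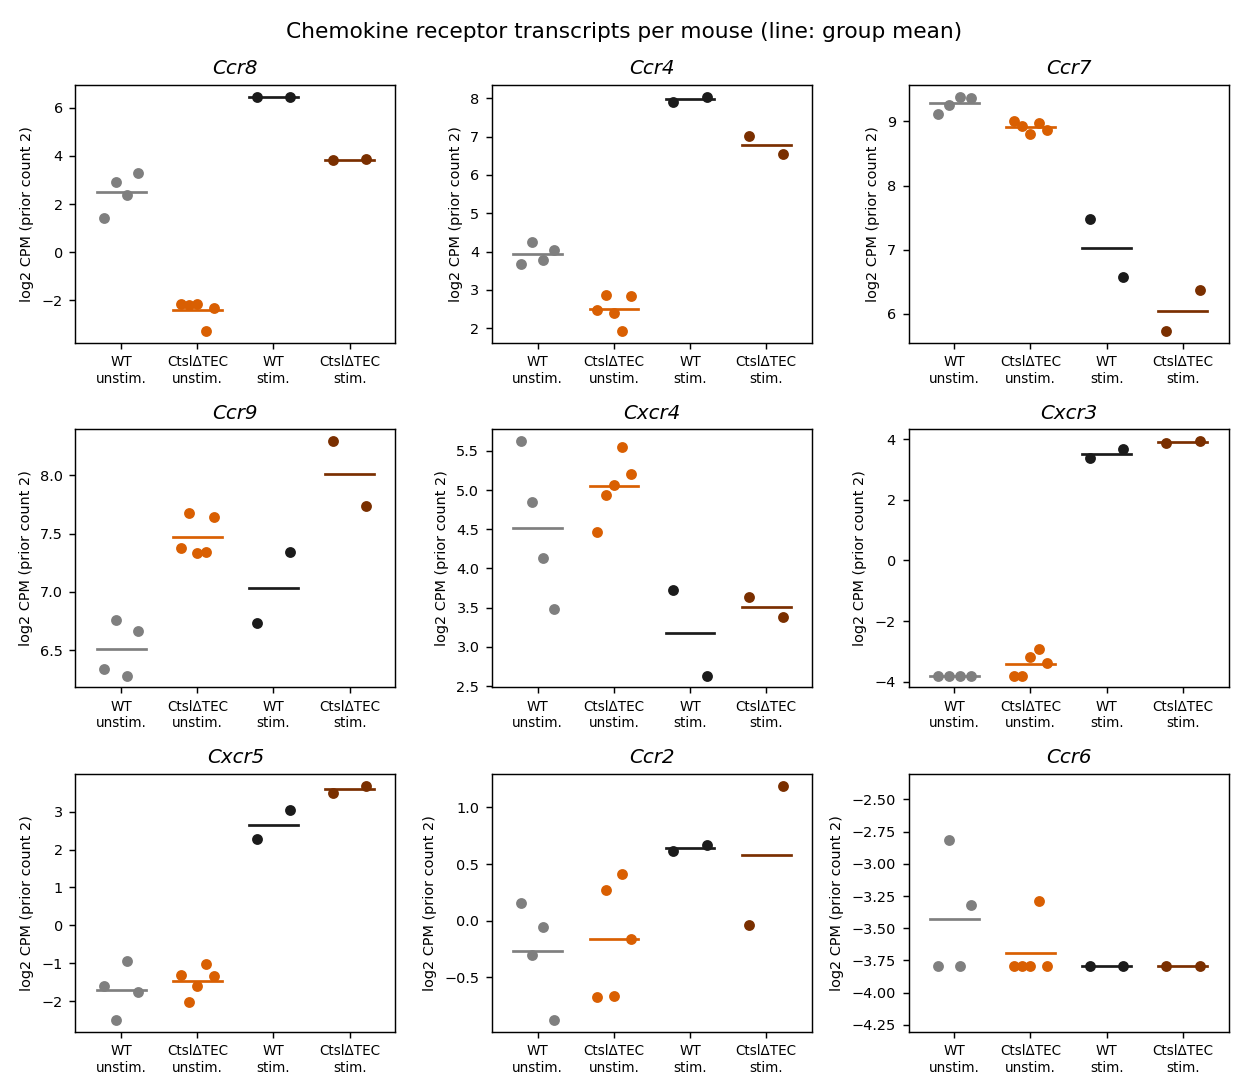
Level of each receptor as log2 CPM (prior count of 2) in every mouse, with 1 point per mouse and a line at the group mean (4 WT and 5 CtslΔTEC unstimulated, 2 and 2 stimulated mice). Vertical axes differ between panels. The genotypes do not overlap for Ccr8, Ccr4, Ccr7 and Ccr9 in either state, and points at about −3.8 are libraries with 0 counts.

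Ccr8 (ENSMUSG00000042262) lies on chromosome 9 of GRCm38 from 120092114 to 120094906 and had 1 annotated transcript. In unstimulated WT mice 1 to 4 it was at 2.61, 7.47, 5.17 and 9.72 CPM, from 90, 213, 139 and 350 counts. In unstimulated CtslΔTEC mice 1 to 5 it was at 0.152, 0.146, 0.149, 0.0300 and 0.125 CPM, from 6, 5, 4, 1 and 5 counts. The groups did not overlap. In all, 792 counts were assigned to Ccr8 in 4 WT mice and 21 in 5 CtslΔTEC mice. The log2 fold change was −5.65 (SE 0.44, 95% interval −6.62 to −4.68, adjusted p = 1.46e-05), and the means of 6.24 ± 3.05 CPM (SD, n = 4) and 0.120 ± 0.052 CPM (SD, n = 5) differed 51.9-fold. An exact two-sided permutation test of the log2 CPM gave p = 0.007937, the smallest that splits of 9 mice can give. In these bulk libraries, fewer cells with Ccr8 and less Ccr8 RNA per cell cannot be told apart. WT mouse 3, whose Ddx3y level was like that of the CtslΔTEC mice, had 139 counts of Ccr8 and lay inside the range of the other WT mice. This 1 mouse cannot separate sex from genotype. With Y-linked transcripts as a covariate the adjusted p was 0.00124, the highest over 23 alternatives, and over these the log2 fold change ranged from −5.91 to −4.40.

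Stimulation raised Ccr8 in both genotypes. WT mice 5 and 6 reached 86.6 and 88.7 CPM and CtslΔTEC mice 6 and 7 reached 14.0 and 14.4 CPM. The increase over unstimulated cells was 3.81 on the log2 scale in WT (SE 0.31, adjusted p = 5.71e-08) and 6.83 in CtslΔTEC cells (SE 0.44, adjusted p = 2.53e-09). CtslΔTEC cells thus had a higher relative and a lower absolute increase: the difference of CtslΔTEC minus WT means was −6.12 CPM before and −73.4 CPM after stimulation, while the ratio of WT to CtslΔTEC means was 51.9 before and 6.17 after. The stimulated difference was −2.62 on the log2 scale (SE 0.39, adjusted p = 0.000945). The 2 stimulated mice of each genotype differed in their Ddx3y level and lay close together for Ccr8, at 87.6 ± 1.47 CPM in WT and 14.2 ± 0.304 CPM in CtslΔTEC cells (mean ± SD, n = 2 each). Ordered by mean level, the groups were stimulated WT, stimulated CtslΔTEC, unstimulated WT and unstimulated CtslΔTEC, and none of these neighbours overlapped. Stimulated CtslΔTEC cells were 2.28-fold above unstimulated WT cells.

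Ccr8 was also the receptor whose response to stimulation differed between the genotypes. The interaction of genotype and stimulation was 3.02 on the log2 scale (SE 0.61, 95% interval 1.72 to 4.32, adjusted p = 0.0172), where 1.13% of all genes were called higher and 4.88% lower. It was the only one of the 8 tested receptors that was called, with none called lower. At an unadjusted p under 0.05, Ccr7 was lower as well (log2 −0.64, SE 0.28, adjusted p = 0.27), and DESeq2 also called Ccr8 alone. The baseline of this difference in CtslΔTEC cells is 1 to 6 counts per mouse. With all libraries thinned to the depth of the smallest, the value was 1.78 and was not called (SE 0.64, adjusted p = 0.16), and it was called in the other 22 alternatives (adjusted p up to 0.0667).

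Ccr4 (ENSMUSG00000047898, chromosome 9, 114490316 to 114504916) had the same order of groups as Ccr8 over a narrower range. Unstimulated WT mice 1 to 4 were at 12.7, 18.8, 13.8 and 16.5 CPM and CtslΔTEC mice 1 to 5 at 5.49, 7.25, 5.14, 3.72 and 7.03 CPM. The lowest WT mouse lay above the highest CtslΔTEC mouse. The log2 fold change was −1.42 (SE 0.19, adjusted p = 0.000498), from means of 15.4 ± 2.76 (SD, n = 4) and 5.73 ± 1.46 CPM (SD, n = 5), and the exact permutation p was 0.007937, the smallest possible. After stimulation WT mice 5 and 6 were at 242 and 264 CPM and CtslΔTEC mice 6 and 7 at 130 and 93.1 CPM. The 2 genotypes again did not overlap, with a log2 fold change of −1.19 (SE 0.24, adjusted p = 0.0072). The responses were 4.04 in WT and 4.28 in CtslΔTEC cells on the log2 scale, and their difference was 0.24 (95% interval −0.40 to 0.87). Between 92.2 and 100% of the Ccr4 counts of each library fell on 1 transcript, Ccr4-201, which starts at the upstream window shown above.

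Compared per transcript length, Ccr8 and Ccr4 were of like abundance in WT cells, and not in CtslΔTEC cells. Ccr8 was at 3.86, 10.5, 7.56 and 13.2 TPM in unstimulated WT mice 1 to 4, where Ccr4 was at 6.77, 9.32, 7.65 and 8.43 TPM. The levels of these 2 receptors overlapped there. In stimulated WT mice 5 and 6 Ccr8 reached 109 and 123 TPM and Ccr4 114 and 139 TPM. In stimulated CtslΔTEC mice 6 and 7 Ccr8 was at 18.4 and 18.8 TPM and Ccr4 at 65.7 and 46.9 TPM, so that Ccr4 exceeded Ccr8 in both mice.

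Ccr7 (ENSMUSG00000037944, chromosome 11, 99144196 to 99155077) was the most abundant receptor transcript of unstimulated cells and the one with the smallest called difference. It was at 554, 610, 670 and 663 CPM in WT mice 1 to 4 and at 517, 485, 448, 502 and 465 CPM in CtslΔTEC mice 1 to 5. The ranges came close but did not overlap, with means of 624 ± 54.1 (SD, n = 4) and 483 ± 27.6 CPM (SD, n = 5). The log2 fold change was −0.37 (SE 0.07, adjusted p = 0.00739), with an exact permutation p of 0.007937, the smallest possible, but in a model of all 13 libraries it was not called (SE 0.15, adjusted p = 0.17). Ccr7 fell on stimulation, to 179 and 95.4 CPM in WT mice 5 and 6 and to 52.9 and 82.5 CPM in CtslΔTEC mice 6 and 7. On the log2 scale the fall was 2.20 in WT (value −2.20, SE 0.22, adjusted p = 5.37e-07) and 2.83 in CtslΔTEC cells (value −2.83, SE 0.23, adjusted p = 3.30e-08). The stimulated difference between genotypes was −1.01 (SE 0.24, adjusted p = 0.015). The 2 stimulated WT mice were far apart for Ccr7. Without WT mouse 5 the difference was −0.50 and without CtslΔTEC mouse 6 it was −0.73, neither of them called. Without WT mouse 6, the interaction of Ccr7 was −1.03 and was called.

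Ccr9 (ENSMUSG00000029530, chromosome 9, 123678439 to 123784330) was the receptor with more transcript in CtslΔTEC cells. Unstimulated WT mice 1 to 4 were at 81.0, 108, 77.9 and 101 CPM and CtslΔTEC mice 1 to 5 at 166, 204, 162, 162 and 199 CPM. Every CtslΔTEC mouse was above every WT mouse. The log2 fold change was 0.96 (SE 0.12, adjusted p = 0.000302), from means of 92.2 ± 15.0 (SD, n = 4) and 179 ± 21.2 CPM (SD, n = 5), with an exact permutation p of 0.007937, the smallest possible. WT mouse 3, with Ddx3y like the CtslΔTEC mice, was the lowest of all for Ccr9, but 1 mouse cannot separate sex from genotype. In stimulated cells WT mice 5 and 6 were at 107 and 162 CPM and CtslΔTEC mice 6 and 7 at 313 and 213 CPM. The difference between genotypes was the same size as before stimulation, 0.96 (SE 0.22, adjusted p = 0.0137), and fell to 0.66 without CtslΔTEC mouse 6 and 0.69 without WT mouse 5, where it was not called. Both genotypes rose on stimulation, by 0.55 in WT (SE 0.19, adjusted p = 0.019) and 0.56 in CtslΔTEC cells (SE 0.18, adjusted p = 0.0127), and the difference of these responses was 0.01 (95% interval −0.56 to 0.57). The ranges of unstimulated and stimulated WT mice overlapped. The rise in WT was 0.19 without WT mouse 6 and that in CtslΔTEC cells 0.24 without CtslΔTEC mouse 6, and neither was then called.

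The transcripts of Ccr9 shifted with stimulation. Most counts fell on Ccr9-204 in every library (66.6 to 83.2%). Ccr9-203, which ends at 123784330 where Ccr9-204 ends at 123781971, took 27.2, 23.2, 20.2 and 14.0% of the Ccr9 counts in unstimulated WT mice 1 to 4 and 16.0, 17.7, 19.4, 21.6 and 20.9% in CtslΔTEC mice 1 to 5. In stimulated cells its share was 4.96 and 7.01% in WT and 5.36 and 6.43% in CtslΔTEC mice. The 4 stimulated libraries were below all 9 unstimulated ones, and the genotypes overlapped in either state. The share of Ccr9-206, a transcript with a retained intron, was 3.98 to 6.77% in unstimulated WT, 4.44 to 7.26% in unstimulated CtslΔTEC, 7.94 and 8.14% in stimulated WT and 12.8 and 10.98% in stimulated CtslΔTEC cells. Transcripts of this kind from all genes together held 5.13 to 6.59% of the counts of unstimulated libraries. They held 5.995 and 7.63% in stimulated WT and 7.94 and 8.55% in stimulated CtslΔTEC libraries. The part of this general share in that of Ccr9 was not tested. These shares are kallisto's allocation of reads among overlapping transcripts and were not tested. The annotated span of Ccr9 also contains Lztfl1, which differed by a log2 fold change of 0.17 (adjusted p = 0.47) between unstimulated genotypes.

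**Figure D3:**
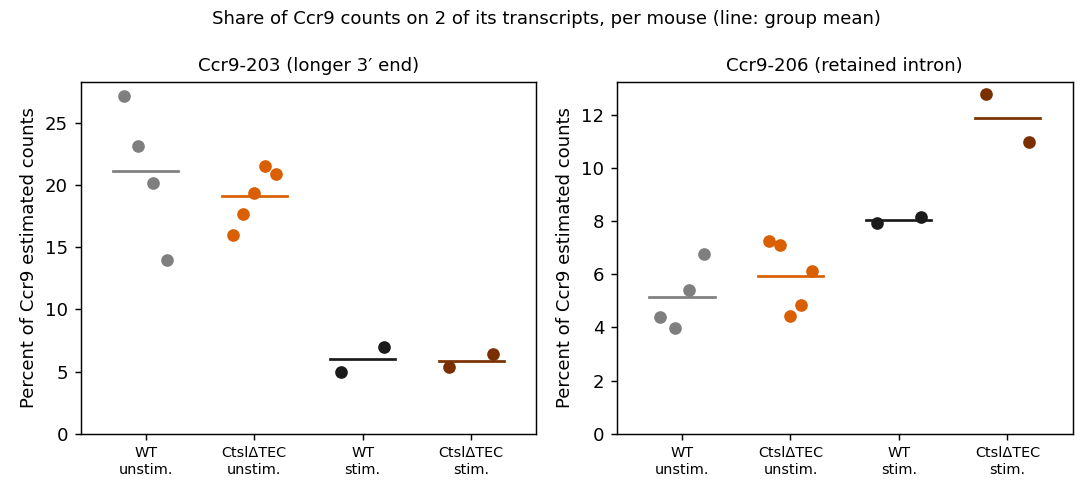
Percent of the Ccr9 estimated counts assigned to Ccr9-203 (left) and to the retained-intron transcript Ccr9-206 (right), with 1 point per mouse and a line at the group mean. Ccr9-203 takes 14.0 to 27.2% in unstimulated and 4.96 to 7.01% in stimulated libraries, and the 2 highest values of Ccr9-206 are the stimulated CtslΔTEC mice.

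Cxcr4 (ENSMUSG00000045382, chromosome 1, 128588199 to 128592293) varied widely among unstimulated mice of a group. Unstimulated WT mice 1 to 4 were at 49.3, 28.6, 17.6 and 11.1 CPM and CtslΔTEC mice 1 to 5 at 22.1, 30.6, 33.5, 47.0 and 36.7 CPM. The WT mice spanned the whole range of the CtslΔTEC mice. The difference was 0.35 on the log2 scale (SE 0.35, 95% interval −0.42 to 1.13, adjusted p = 0.61), an interval that includes a change of either sign. In stimulated cells Cxcr4 was at 13.1 and 6.14 CPM in WT and 12.4 and 10.4 CPM in CtslΔTEC mice (log2 difference 0.33, 95% interval −0.93 to 1.60, adjusted p = 0.81). Cxcr4 fell on stimulation, by log2 values of −1.57 in WT (SE 0.52, adjusted p = 0.0159) and −1.58 in CtslΔTEC cells (SE 0.49, adjusted p = 0.0104). The fall in WT was −1.04 without WT mouse 6 and was then not called. Among the 4 unstimulated WT mice, mouse 1 had the highest Cxcr4 and the lowest Ccr8, and mouse 4 the lowest Cxcr4 and the highest Ccr8. Mouse 2 was above mouse 3 for both genes, and mouse 4 alone of these mice carried the earlier date. A relation between the 2 genes was not tested.

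Cxcr3 and Cxcr5 were near 0 in unstimulated cells of both genotypes and appeared on stimulation. Cxcr3 (ENSMUSG00000050232, chromosome X, 101731535 to 101734269) had 0 counts in all 4 unstimulated WT mice and 0, 0, 1, 2 and 1 counts in CtslΔTEC mice 1 to 5. In stimulated cells it had 77 and 327 counts in WT mice 5 and 6 (10.2 and 12.7 CPM) and 162 and 240 counts in CtslΔTEC mice 6 and 7 (14.6 and 15.2 CPM). Against a limit of 3 counts per unstimulated library, the increase was at least 118-fold in WT and at least 169-fold in CtslΔTEC cells. Both stimulated CtslΔTEC mice were above both WT mice, with a log2 difference of 0.37 (SE 0.32, 95% interval −0.33 to 1.08, adjusted p = 0.56) that did not pass the test. Cxcr5 (ENSMUSG00000047880, chromosome 9, 44511787 to 44561877) had 9, 3, 12 and 8 counts in unstimulated WT mice 1 to 4 and 13, 6, 7, 14 and 13 in CtslΔTEC mice 1 to 5. These groups overlapped, with a log2 difference of 0.24 (95% interval −0.63 to 1.11, adjusted p = 0.78). After stimulation Cxcr5 was at 4.77 and 8.12 CPM in WT and at 11.1 and 12.8 CPM in CtslΔTEC mice. The rise was 4.66 on the log2 scale in WT (SE 0.37, adjusted p = 3.41e-08) and 5.28 in CtslΔTEC cells (SE 0.33, adjusted p = 1.69e-09). The stimulated genotypes did not overlap in CPM, but they did in TPM, at 2.21 and 10.4 in WT and 7.25 and 9.30 in CtslΔTEC mice. The log2 difference of 0.86 (SE 0.37, 95% interval 0.07 to 1.66) was not called (adjusted p = 0.18). It was called by DESeq2 (adjusted p = 0.0807) and in the 4 stimulated libraries alone (adjusted p = 0.0947), and over all 24 alternatives its adjusted p ranged from 0.0807 to 0.83. With an offset for transcript length the difference was 0.40, and the rise was 3.58 in WT and 4.62 in CtslΔTEC cells.

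Ccr2 and Ccr6 contributed little. Ccr2 (ENSMUSG00000049103, chromosome 9, 124101950 to 124113557) had 17 to 36 counts in unstimulated WT, 15 to 42 in unstimulated CtslΔTEC, 11 and 39 in stimulated WT and 10 and 35 in stimulated CtslΔTEC mice, spread over 4 transcripts. At these low counts its level is uncertain, and sharing of reads with related receptor genes was not tested. The genotypes differed by 0.15 on the log2 scale in unstimulated cells (95% interval −0.56 to 0.86, adjusted p = 0.84). Its rise on stimulation was called at the margin in WT (0.92, SE 0.45, adjusted p = 0.088) and in CtslΔTEC cells (0.88, SE 0.43, adjusted p = 0.0832). Neither 95% interval of the rise excluded 0. Without CtslΔTEC mouse 7 the second value was 0.03. Ccr6 (ENSMUSG00000040899, chromosome 17, 8236043 to 8257141) had 3 counts in all over the 4 unstimulated WT mice, 1 over the 5 CtslΔTEC mice and 0 in every stimulated library, which allows up to 3 counts in each, and it was not tested.

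Of the 7 receptors that passed the count filter in unstimulated cells too, all were called in the responses of both genotypes. Ccr4, Cxcr5, Ccr8, Ccr9 and Ccr2 rose and Ccr7 and Cxcr4 fell. Cxcr3 passed the filter only through the stimulated libraries, where it is high, and is left out of this count. The background was high: 32.9% of all genes were called higher and 34.8% lower in WT cells, and 32.9% higher and 38.2% lower in CtslΔTEC cells. Without WT mouse 6, 4 of the 7 were called in WT (Ccr4, Ccr7, Ccr8 and Cxcr5).

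**Figure D4:**
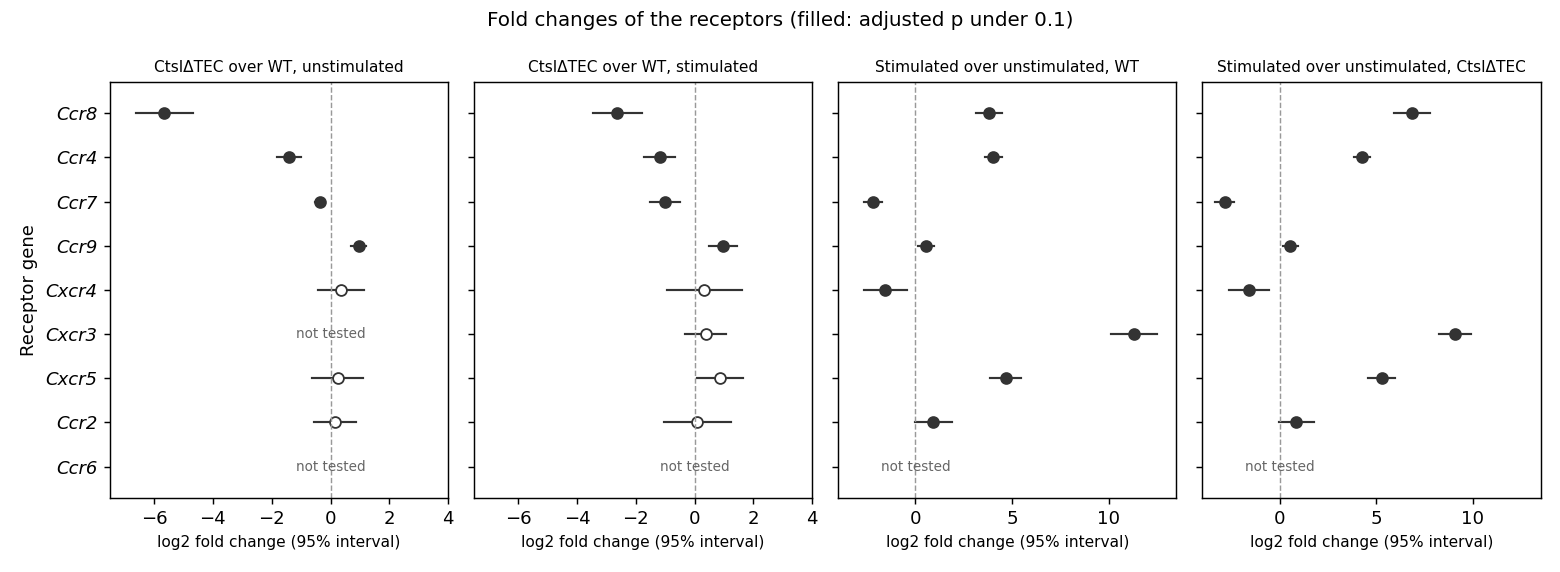
Log2 fold change of each receptor with its 95% interval between genotypes (left pair of panels) and between stimulated and unstimulated cells (right pair), with filled points for an adjusted p under 0.1. Ccr8 lies farthest from 0 between genotypes, at −5.65 and −2.62, and the fitted values of Cxcr3 on the right rest on unstimulated libraries with 0 to 2 counts.

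The other chemokine receptors were scarce in these cells. Of 15 further receptor genes, 4 were tested in unstimulated cells and none was called by edgeR between genotypes, nor did any have an unadjusted p under 0.05. In stimulated cells 6 were tested and none was called, with 1 at an unadjusted p under 0.05. Cxcr6, a receptor of tissue-resident and effector T cells that lies 22145 bases from Ccr9, was at 0.133 CPM in unstimulated and 3.99 CPM in stimulated WT cells, and at 0.125 and 5.80 CPM in CtslΔTEC cells. It passed the count filter only through the stimulated libraries, so no test is given. Cx3cr1, the fractalkine receptor, rose by 2.76 in WT (SE 0.33, adjusted p = 3.21e-06) and by 1.40 in CtslΔTEC cells (SE 0.32, adjusted p = 0.00139), and the difference of these responses was −1.36 (SE 0.48, adjusted p = 0.15), which did not pass the test. Of the 4 that passed the filter in unstimulated cells too, 2 rose and 1 fell in WT, and 2 rose and 2 fell in CtslΔTEC cells, where 32.9% of all genes rose and 34.8% (WT) or 38.2% (CtslΔTEC) fell. Together the 15 summed to at most 8.80 TPM in any library, against at least 242 TPM for the 9.

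Of the ligands of the 9 receptors, Ccl25 was the one clearly detected in the sorted cells. Of 16 ligand genes, 1 was tested in unstimulated and 3 in stimulated cells, and none was called between genotypes by edgeR or reached an unadjusted p under 0.05. Ccl25, the ligand of CCR9, was at 9.50 CPM in unstimulated CtslΔTEC and 8.45 CPM in WT cells (log2 difference 0.17, SE 0.13, adjusted p = 0.47). Cxcl10 and Cxcl11, both ligands of CXCR3, had at most 8 and 9 counts in any library.

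Genes that carry the receptor signal were called lower more often than higher, as were all genes together. Of 35 signalling genes (G proteins, receptor kinases, arrestins, RGS proteins, DOCK2 and other migration factors), 34 were tested in unstimulated cells, with 1 called higher and 6 lower in CtslΔTEC cells, against 6.42% and 8.36% of all genes. Rgs3, which limits G protein signalling, was lower by a log2 value of −0.42 (SE 0.07, adjusted p = 0.00225) and Dock2 by −0.31 (SE 0.07, adjusted p = 0.0106). Of 35 tested in stimulated cells, none was called higher and 11 lower, against 2.77% and 10.6% of all genes, and 1 was higher at an unadjusted p under 0.05. Pik3r5, a subunit of phosphoinositide 3-kinase γ, was lower by −0.79 (SE 0.12, adjusted p = 0.00119) and Gng2, a G protein γ subunit, by −1.30 (SE 0.21, adjusted p = 0.00186). The interaction was called for 8 of these genes, 1 higher and 7 lower (1.13% and 4.88% of all genes), with Pik3r5 (−0.92, adjusted p = 0.00487) and Rgs10 (−0.80, adjusted p = 0.014) at the smallest p. The list medians were −0.11 and −0.27 in unstimulated and stimulated cells, against 0.01 and −0.05 over all genes. Of the 34 tested in unstimulated cells too, 25 fell on stimulation in each genotype, where 34.8% of all genes fell in WT and 38.2% in CtslΔTEC cells, and 3 rose in WT and 4 in CtslΔTEC cells, where 32.9% of all genes rose. Rgs16, which passed the filter only through the stimulated libraries, went from at most 4 counts per library to between 105.9 and 115 CPM.

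Of 14 transcription factors of thymocyte maturation and T cell fate, 13 were tested in unstimulated cells, with 2 higher and 4 lower in CtslΔTEC cells, against 6.42% and 8.36% of all genes. Bcl6 was higher by 0.79 (SE 0.08, adjusted p = 0.000116) and Gata3, the factor of CD4 lineage and Th2 cells, lower by −0.80 (SE 0.09, adjusted p = 0.000176). In stimulated cells 1 was higher and 3 were lower (2.77% and 10.6% of all genes), among them Gata3 (−0.92, SE 0.17, adjusted p = 0.00328) and Foxo1, which drives Ccr7 in naive T cells (−0.61, SE 0.12, adjusted p = 0.0047). For the interaction, Tcf7 alone was called, at −0.75 (SE 0.21, adjusted p = 0.0733), where 1.13% of all genes were called higher and 4.88% lower. Of the 13 tested in unstimulated cells too, 3 rose and 10 fell on stimulation in each genotype, where 32.9% of all genes rose and 34.8% (WT) or 38.2% (CtslΔTEC) fell.

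Most tested markers of an earlier thymic stage were higher in unstimulated CtslΔTEC cells. Of 8 DP marker genes, 7 were tested in unstimulated cells and 6 were higher in CtslΔTEC cells, against 6.42% of all genes, with Cd8a at 4.10 to 4.65 CPM in WT and 23.1 to 33.5 CPM in CtslΔTEC mice (log2 2.75, SE 0.12, adjusted p = 2.76e-07). Cd8b1, the other CD8 chain, was higher by 2.22 in unstimulated (adjusted p = 2.76e-07) and 1.90 in stimulated cells (adjusted p = 2.92e-05). The list summed to 97.0 to 127 TPM in WT and 277 to 357 TPM in CtslΔTEC mice. Rag2, one of its defining genes, had 0 to 9 counts in WT and 4 to 51 counts in CtslΔTEC mice. In stimulated cells it summed to 26.7 and 33.4 TPM in WT and 62.7 and 66.1 TPM in CtslΔTEC mice, with 3 of 8 tested genes higher and 1 lower, against 2.77% and 10.6% of all genes. The same shares, 6.42% higher and 8.36% lower in unstimulated and 2.77% and 10.6% in stimulated cells, stand against the counts of the marker lists that follow. The part of the DP markers in the levels of Ccr9, Ccr8, Ccr4 and Ccr7 was not tested. Of the 8 T cell markers, none was higher and 3 were lower in unstimulated CtslΔTEC cells, with Cd5 at −1.08 and Cd2 at −0.38 on the log2 scale (adjusted p = 7.55e-05 and 0.00502), and none was called between stimulated genotypes (1 higher and 1 lower at an unadjusted p under 0.05). Treg markers, listed because Ccr8 and Ccr4 are also known from regulatory T cells, summed to 42.8 to 57.4 TPM in unstimulated WT and 51.8 to 64.7 TPM in unstimulated CtslΔTEC mice, ranges that overlap, with 2 of 6 tested genes higher and 1 lower. Il2ra, the IL-2 receptor α chain, was higher, at 6.52 to 12.9 CPM against 2.01 to 2.61 CPM in WT (adjusted p = 6.82e-05), and Ikzf2, which encodes Helios, lower by −0.72 on the log2 scale (adjusted p = 0.00862). Foxp3, which defines these cells, was at 0.611 to 1.12 CPM in unstimulated WT and 0.670 to 1.15 CPM in CtslΔTEC mice, and had at most 2 counts in any stimulated library. The Treg list, which shares surface genes with activated T cells, summed to 473.5 to 477.7 TPM in stimulated WT and 420.3 to 432.2 TPM in stimulated CtslΔTEC mice, with 3 of 7 tested genes lower, among them the costimulatory receptors Tnfrsf4 (−0.94, adjusted p = 0.0146) and Tnfrsf18 (−0.71, adjusted p = 0.0417). In unstimulated cells, markers of memory-like and recirculating T cells summed to 36.8 to 52.0 TPM, with 1 of 4 tested genes higher (Il2rb) and 1 lower (Fasl), those of myeloid and dendritic cells to 7.23 to 12.9 TPM, with 1 of 5 higher (Csf1r) and 1 lower (Itgam), and those of thymic epithelium to 4.13 to 7.56 TPM, with 1 of 3 higher (Epcam) and 1 lower (Prss16). B cell markers reached at most 1.79 TPM and NK cell markers at most 6.86 TPM, and of 2 tested genes in each none was called by edgeR (1 B cell marker was lower at an unadjusted p under 0.05). In stimulated cells the myeloid and dendritic list summed to 7.87 and 21.3 TPM in WT and 6.48 and 8.98 TPM in CtslΔTEC mice, and Itgax, its integrin CD11c gene that activated T cells can also express, had 47 and 397 counts in stimulated WT against 5 and 17 in stimulated CtslΔTEC mice. It passed the count filter only through the stimulated libraries, so no test is given. Its part in the receptor differences of stimulated cells was not tested. The thymic epithelial list summed to 8.45 and 10.5 TPM in stimulated WT and 10.4 and 12.4 TPM in stimulated CtslΔTEC mice, most of it Epcam, at a mean of 8.22 and 9.72 TPM. In unstimulated cells Prss16 was at a mean of 4.63 TPM in WT and 2.12 TPM in CtslΔTEC mice, and Gzma of the NK list at 3.49 and 4.26 TPM. Of 4 Y-linked genes none was called in any comparison by edgeR, and 1 was higher in unstimulated CtslΔTEC cells at an unadjusted p under 0.05. Activation genes moved with stimulation: all 9 genes that passed the filter in unstimulated cells too rose in each genotype, where 32.9% of all genes rose. In unstimulated cells 2 of 9 were higher, among them Il2ra, and 1, Irf4, was lower. Between stimulated genotypes Nr4a3 was higher in CtslΔTEC cells. Il2 was at 50.7 and 54.4 CPM in stimulated WT and 3.07 and 5.75 CPM in stimulated CtslΔTEC mice. Il2 passed the count filter only through the stimulated libraries, so no test is given.

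The genes whose levels most resembled those of Ccr8 over the 13 libraries, by Pearson's r of log2 CPM among all tested genes, were Ybx3 (0.988), Qpct (0.980), Atcay (0.979), Nsmf (0.973) and Minpp1 (0.969), and over the 9 unstimulated libraries alone their r was 0.947 to 0.973. For Ccr4 the 2 most alike were Cd5 (0.991), a surface inhibitor of T cell receptor signalling, and Maged1 (0.990), and for Ccr7 they were Slfn1 (0.996) and Ctsd (0.995). The closest for Cxcr3 were Spin4 (0.998) and Nop14 (0.998), for Cxcr5 Arfrp1 (0.990) and Ing5 (0.990), and for Cxcr4 Rnf6 (0.944) and Spidr (0.937). Ccr9 and Ccr2 had no gene as close, the nearest being Vmn1r77 (0.899) and Tfap2a (0.881). These values describe libraries that fall into 4 groups, so that any gene with the same group means will rank high. Among the members, Ccr8 was most like Ccr4 (0.920) and Cxcr3 most like Cxcr5 (0.983).

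Of the annotated neighbours of Ccr8, Ccr4 and Ccr9, 1 near each was called, where 6.42% of all genes were called higher and 8.36% lower. Within 200 kb of Ccr8, 6 other genes were tested in unstimulated cells and Rpsa, a ribosomal protein gene, was the only one called (log2 −0.34, SE 0.08, adjusted p = 0.0136). Of 5 tested near Ccr4 it was Glb1 (−0.31, SE 0.08, adjusted p = 0.0356) and of 5 tested near Ccr9 it was Limd1 (−0.18, SE 0.06, adjusted p = 0.0642).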

How the data were processed

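RNA-seq libraries of sorted M2 CD4SP thymocytes, 1 per mouse, were analysed as deposited. The deposited estimated counts and TPM (abundance scaled for effective length) are the output of kallisto 0.48, which the authors ran on an Ensembl transcriptome, with 1 value per transcript. The labels give polyA RNA and the study's methods ribosomal RNA depletion. Both values were summed per gene after pairing 99.1% of 117497 transcripts with the GENCODE M21 annotation (GRCm38), which is not the annotation the authors used. At most 0.461% of a library's counts had no gene. Summed counts were rounded, filtered with filterByExpr, scaled with TMM and tested with the quasi-likelihood test of edgeR 4.0.16 (R 4.3.3) with Benjamini-Hochberg adjustment. The 9 unstimulated libraries were fitted alone, and all 13 for the other comparisons. Log2 CPM used a prior count of 2. A count of 0 allows up to 3 counts, for counting error only. Single values were compared with exact two-sided permutation tests.

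The members and gene lists were chosen with earlier results of these data known. Named were all members, the 2 genes of each list with the smallest p among its called genes (for marker and activation lists printed for the genotype comparisons only), the genes most like each member, and Ddx3y. Other genes were chosen after their values were seen. The procedure was tested on simulated data with 200 changed genes. Of these, 200 were recovered for the unstimulated comparison (15 false calls), 185 for the stimulated comparison (12 false calls) and 150 for the interaction (8 false calls). The changed genes were drawn from higher levels than that of Ccr8 in unstimulated CtslΔTEC cells, which the recovery does not cover. Alternatives included DESeq2 1.42.0, other scalings and filters, thinning, covariates for date and Y-linked transcripts, and leaving out each mouse. The files hold no columns of the authors' comparisons. Some genes of the lists are counted but not reported here by name.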

Additional observations from a re-analysis of the deposited data

Results flagged for a closer look

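Ccr8 stood apart in the test of whether the response to stimulation differed between genotypes, with an interaction of 3.021 on the log2 scale (adjusted p = 0.0172 by edgeR's quasi-likelihood test). Of 17 groups of 4 or 5 mice examined for a mouse far from the others, 2 had one, each resting on 1 count. The chance value of 0.85 does not hold for counts this low, so it cannot tell whether 2 is an excess. In unstimulated CtslΔTEC cells Ccr8 was lowest in mouse 4, at −3.291 log2 CPM from 1 count, against −2.345 to −2.159 in the other 4 mice. In the same mouse Ccr6 was highest, at −3.291 log2 CPM, which is 1 count against 0 in the other 4 mice. Where the other 4 tie at 0, any count in a mouse is flagged.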

How the results depend on the processing

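Of 897 alternative values of the receptors, 825 kept their direction and their side of the threshold, 32 lost a call (23 of them Ccr2), 3 gained one and 37 changed sign, all of them values that were not called. When a mouse was left out, the log2 values ranged for the interaction of Ccr2 from −0.88 to 0.42, Ccr4 −0.021 to 0.45, Ccr9 −0.30 to 0.34 and Cxcr4 −0.56 to 0.53, for the stimulated difference of Ccr2 from −0.73 to 0.57 and Cxcr4 −0.22 to 0.88, and for the unstimulated difference of Ccr2 from −0.041 to 0.32 and Cxcr5 −0.00084 to 0.59. With a Y-linked covariate the interaction was 0.29 for Ccr2 and −0.12 for Ccr9, and the unstimulated difference −0.089 for Ccr2 and −0.54 for Cxcr5. With a transcript length offset the interaction was 0.16 for Ccr2 and −0.039 for Ccr9, and the unstimulated difference −0.089 for Ccr2 and −0.54 for Cxcr5. The interaction was −0.047 for Ccr9 with library totals, −0.031 for Ccr9 and 0.011 for Cxcr4 with protein-coding transcripts alone and 0.019 for Cxcr4 with upper-quartile factors, and the stimulated difference of Ccr2 was −0.24 after thinning. In unstimulated cells 4 receptors were called, and leaving out each mouse gave 4 throughout. The mouse numbers did not pair the samples (correlation of deviations −0.135, 0.298, −0.0727 and −0.148 for mice 1 to 4), and in these 8 mice the number as a replicate block left 4 receptors and 1056 of all genes called, against 1549 without the block and 1943 with CtslΔTEC mouse 5 as well. With a Y-linked covariate 430 of all genes were called, Ccr8, Ccr4, Ccr7 and Ccr9 among them. A model of all 13 libraries called 3 receptors, without Ccr7. In stimulated cells 4 were called, 2 to 4 when a mouse was left out, and all-gene calls went from 1898 to 945 without CtslΔTEC mouse 6, 1254 without CtslΔTEC mouse 7, 966 without WT mouse 5 and 1127 in the stimulated libraries alone. The interaction called 1 receptor, 0 after thinning to the smallest library, and 1 to 2 when a mouse was left out, with all-gene calls of 856, falling to 334 without CtslΔTEC mouse 6, 340 without WT mouse 5 and 471 at an adjusted p under 0.05. With Cxcr3 counted, which passed the filter only through stimulated libraries, the response called 8 receptors in WT (5 to 8 when a mouse was left out) and 8 in CtslΔTEC cells (7 to 8). The cause was not tested. Depth limits Ccr6, Cxcr3 and Ccr8 in unstimulated CtslΔTEC cells, each at a few counts. Library totals in place of TMM shifted the median of all genes by −0.14 in the response of CtslΔTEC cells.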
